A study of Mus musculus with 4 samples.

Results

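The 10 genes described here are regulators and effector genes of fat cell formation: the transcription factors Pparg, Cebpa, Cebpb, Cebpd and Zfp423, the lipid-handling genes Lpl, Cd36, Fabp4 and Plin2, and the fat cell hormone gene Adipoq. They were taken as a list by symbol, and all 10 were found among the 54532 genes of the count files. Their read counts were compared in C3H10T1/2 cells, mesenchymal stem cells of the mouse that are known to become fat, bone, cartilage or muscle, in 4 libraries. Unedited cells gave 1 library (WT), and 1 came from cells with a CRISPR edit at the splice acceptor of Prdx1 intron 5, which the labels also call a Prdx1 knockout (PRDX1MT). The other 2 came from a double knockout of DNMT3A/B, the enzymes that set new DNA methylation (DKO, clones 1 and 5). All cells were grown in DMEM with 10% fetal bovine serum, and the labels name no fat-inducing agent. The lines were made to study how the gene Mmachc is silenced. Whether DKO cells also carry the Prdx1 edit is not stated, nor what the ending c10 in the name of the PRDX1MT library means. WT and PRDX1MT are 1 library each, and each DKO library is 1 clone.

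Fat cell formation runs through a relay of transcription factors. C/EBPβ and C/EBPδ, encoded by Cebpb and Cebpd, are induced early and switch on Pparg and Cebpa, whose products then maintain each other and drive the genes of the mature fat cell. Zfp423 marks and commits preadipocytes upstream of Pparg. Among the targets, Lpl encodes the lipase that frees fatty acids from lipoproteins, Cd36 a fatty acid transporter, Fabp4 a fatty acid carrier of the cytosol, Plin2 a coat protein of lipid droplets found in many cell types, and Adipoq the hormone adiponectin.

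Libraries held 27570136 to 37685798 counts. Levels are CPM, counts divided by library size after TMM scaling between libraries, and 3 counts, the floor used for a count of 0 (about its one-sided 95% limit), were worth 0.0729 to 0.121 CPM. Reads of Prdx1 were at 31.2 CPM in PRDX1MT and 332 to 399 CPM in the other libraries. Dnmt3a stood at 43.7 CPM in WT and at 31.3 and 25.9 CPM in clones 1 and 5, and such gene-level reads do not check a knockout that may still be transcribed. The noncoding RNA gene Gm26917 took 5.36% (DKO clone 1) to 22.3% (PRDX1MT) of the counts. All 12 mesenchymal stem cell markers passed the filter on low counts, with Vim at 5319 to 6017 CPM, but Nt5e was at 0.421 to 0.802 CPM in the 4 libraries and Thy1 at 0.757 to 1.38 CPM in the edited lines against 29.0 CPM in WT. Ranges of ratios between libraries are 95% exact intervals and cover counting error only.

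DKO clone 1 had the highest level of several of the 10 genes and the lowest level of Cebpa (8.16 CPM). Lpl had 172 CPM there and no more than 1.60 CPM elsewhere. Cebpb, Plin2, Zfp423 and Fabp4 were also highest in clone 1, while DKO clone 5 differed from WT by less than 2-fold in the genes with at least 100 reads in those libraries together. Lpl, with 86, was 2.21-fold lower in clone 5. PRDX1MT had a pattern of its own, with the highest Cebpa, high Cebpb and the lowest Pparg. Cd36 and Adipoq were at or near 0 reads, with 31 reads of Adipoq in clone 1.

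**Figure D1:**
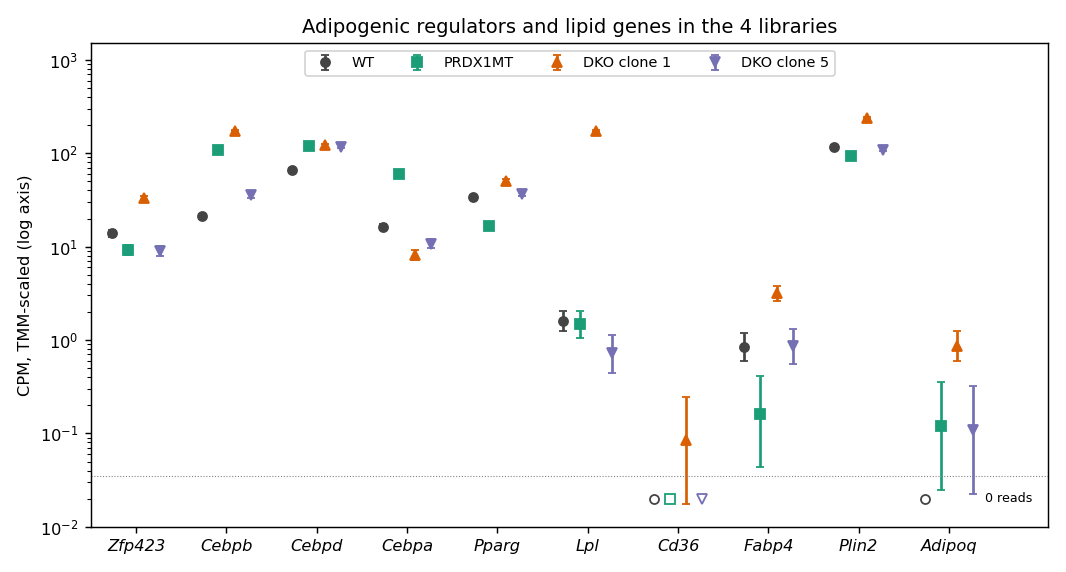
Level of each of the 10 genes (x axis) in CPM on a log axis (y axis) in the 4 libraries, 1 symbol per library, with bars for the 95% Poisson interval of the count. Open symbols below the dotted line stand for 0 reads and are drawn at an arbitrary height. Lpl in DKO clone 1 (172 CPM) is far above its other 3 values (0.726 to 1.60 CPM), and Cebpd is alike in the 3 edited lines (117 to 122 CPM).

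The enzymes named in the DKO label act on CpG dinucleotides, so start regions are shown for genes that differ widely in CpG content. RefSeq start windows on GRCm38.p6 were found for 7 of the 10 genes, with more than 1 start for Pparg and Zfp423. Methylation was not measured here. Each line is the 250 bases before a start, 5′ to 3′ on the gene's strand, with CpG in capitals.
Cebpb (chr2:167688665-167688914, plus strand): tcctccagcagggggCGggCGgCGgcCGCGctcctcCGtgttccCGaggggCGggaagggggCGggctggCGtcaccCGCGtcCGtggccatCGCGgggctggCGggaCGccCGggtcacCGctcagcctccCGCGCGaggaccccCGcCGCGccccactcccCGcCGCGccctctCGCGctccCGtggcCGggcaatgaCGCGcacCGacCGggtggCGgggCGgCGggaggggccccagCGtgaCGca
Cebpa (chr7:35119043-35119292, plus strand): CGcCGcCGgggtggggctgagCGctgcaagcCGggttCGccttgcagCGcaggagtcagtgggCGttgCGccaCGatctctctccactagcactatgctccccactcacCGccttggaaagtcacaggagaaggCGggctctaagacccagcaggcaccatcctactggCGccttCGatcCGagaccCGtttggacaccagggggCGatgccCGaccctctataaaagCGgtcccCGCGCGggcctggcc
Pparg (chr6:115421816-115422065, plus strand): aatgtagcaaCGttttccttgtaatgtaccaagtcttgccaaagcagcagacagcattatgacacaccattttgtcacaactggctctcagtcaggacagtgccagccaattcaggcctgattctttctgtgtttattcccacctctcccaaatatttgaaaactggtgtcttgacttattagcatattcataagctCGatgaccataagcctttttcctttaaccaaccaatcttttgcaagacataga
Cd36 (chr5:17835897-17836146, minus strand): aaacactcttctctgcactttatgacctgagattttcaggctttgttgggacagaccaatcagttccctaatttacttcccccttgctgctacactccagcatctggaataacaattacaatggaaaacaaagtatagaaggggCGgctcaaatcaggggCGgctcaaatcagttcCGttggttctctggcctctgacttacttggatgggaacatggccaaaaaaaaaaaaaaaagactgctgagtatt
Adipoq (chr16:23146286-23146535, plus strand): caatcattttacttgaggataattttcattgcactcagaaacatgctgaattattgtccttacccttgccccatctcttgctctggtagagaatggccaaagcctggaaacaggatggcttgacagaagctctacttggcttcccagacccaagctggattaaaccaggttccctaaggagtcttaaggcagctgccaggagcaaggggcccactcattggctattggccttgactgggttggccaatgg

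Cebpb, which was read in all 4 libraries, had 41 CpG in its window, more than 98.9% of all 32817 windows of that length. Cebpa had 22, more than 85.2% of windows. The Adipoq and Cd36 windows, whose genes were near 0 reads, held 0 and 3 CpG, where the median window held 6. The printed Pparg window lies before the start of Pparg-201, with 505 codons, a form known from fat cells. It held 2 CpG, and the window at the first Pparg start, of a transcript with 475 codons, held 38. The counts are per gene, so they do not tell which Pparg start was used. A C/EBP motif (TTGCGCAA, both strands) was in 0 of the 10 member windows and in 0.165% of all windows. A looser form that includes it (TTGCNNAA, both strands) had 2 matches in the printed Pparg window and 1 at a Zfp423 start, and 9.57% of all windows held it. The cyclic AMP response element (TGACGTCA, both strands) was in 0 member windows and in 1.55% of all windows. The Plin2 window held 6 CpG, and those of the Zfp423 starts 6 and 18.

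Among the early factors, Cebpb (ENSMUSG00000056501, GRCm38/mm10 chromosome 2, 167688915 to 167690418, plus strand) varied most. It stood at 21.2 CPM (WT), 109 (PRDX1MT), 171 (clone 1) and 35.4 (clone 5). PRDX1MT and clone 1 were the high libraries, and clone 5 lay between them and WT. Against WT, Cebpb was 5.16-fold higher in PRDX1MT (4.78 to 5.58) and 8.08-fold higher in clone 1 (7.53 to 8.69). The 1.67-fold difference of clone 5 (1.52 to 1.83) was under the size rule used for pairs of libraries, a log2 ratio of at least 1 in size with at least 100 reads and an interval that excludes no change. For DKO as a group the mean was 103 ± 95.9 CPM (SD, n = 2). The log2 ratio to WT was 2.29 (SE 0.92), which did not pass (edgeR with Benjamini-Hochberg adjustment over 19446 genes, adjusted p = 0.895). Its reads are uncertain where 312 exon bases overlap exons of Tmem189 on the other strand.

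Cebpd (ENSMUSG00000071637, chromosome 16, 15887286 to 15891031, plus strand) stood at 66.1 CPM (WT), 118 (PRDX1MT), 122 (clone 1) and 117 (clone 5). WT was the low library, and the edited lines lay close together. The log2 ratios to WT were 0.84 in PRDX1MT, 0.88 in clone 1 and 0.83 in clone 5, each under the size rule and each with an interval above 0. The clones differed by 1.04-fold (0.989 to 1.08), within counting error, with a mean of 119 ± 2.93 CPM (SD, n = 2), yet the edgeR log2 ratio of 0.85 (SE 0.46) had an adjusted p of 1.0 with Benjamini-Hochberg adjustment. Exons of Spidr on the other strand cover 562 bases of Cebpd.

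Zfp423 (ENSMUSG00000045333, chromosome 8, 87661810 to 87959595, minus strand), the preadipocyte factor, stood at 13.9 CPM (WT), 9.20 (PRDX1MT), 33.1 (clone 1) and 9.08 (clone 5). Clone 1 was the high library. PRDX1MT and clone 5 differed by 1.01-fold (0.844 to 1.22), which is within counting error. Against WT, Zfp423 was 2.37-fold higher in clone 1 (2.15 to 2.63), and clone 5 lay on the other side of WT, 1.54-fold lower (1.32 to 1.79). The edgeR log2 ratio of DKO to WT was 0.60 (SE 0.77, adjusted p = 1.0, Benjamini-Hochberg adjustment).

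The later factors, Pparg and Cebpa, differed from each other in their patterns. Pparg (ENSMUSG00000000440, chromosome 6, 115360951 to 115490399, plus strand) stood at 33.9 CPM (WT), 16.6 (PRDX1MT), 50.1 (clone 1) and 36.6 (clone 5). PRDX1MT was the low library and clone 1 the high one. Pparg was 2.04-fold lower in PRDX1MT than in WT (1.83 to 2.29), just past the size rule, and 1.48-fold higher in clone 1 (1.38 to 1.59), short of it. Clone 5 could not be told from WT (1.08-fold, 0.997 to 1.17), and its small difference turned to -0.03 (log2) with total-count scaling. Against PRDX1MT, DKO had a log2 ratio of 1.39 (SE 0.50, unadjusted p = 0.0253, adjusted p = 0.868, edgeR with Benjamini-Hochberg adjustment).

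Cebpa (ENSMUSG00000034957, chromosome 7, 35119293 to 35121928, plus strand), the partner of Pparg in mature fat cells, stood at 16.4 CPM (WT), 59.8 (PRDX1MT), 8.16 (clone 1) and 10.8 (clone 5). PRDX1MT was the high library, and both clones lay below WT. Cebpa was 3.65-fold higher in PRDX1MT than in WT (3.33 to 4.0). It was 2.01-fold lower in clone 1 (1.75 to 2.31), a log2 ratio of -1.0 that fell just short of the size rule, and 1.52-fold lower in clone 5 (1.33 to 1.75). The DKO clones had a mean of 9.45 ± 1.83 CPM (SD, n = 2). The log2 ratio of DKO to PRDX1MT was -2.66 (SE 0.46), with an adjusted p of 0.107 by edgeR and 0.00321 by DESeq2, both with Benjamini-Hochberg adjustment. The call was made by DESeq2 only. Only 51 bases of Cebpa overlap an antisense gene, Gm45091.

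**Figure D2:**
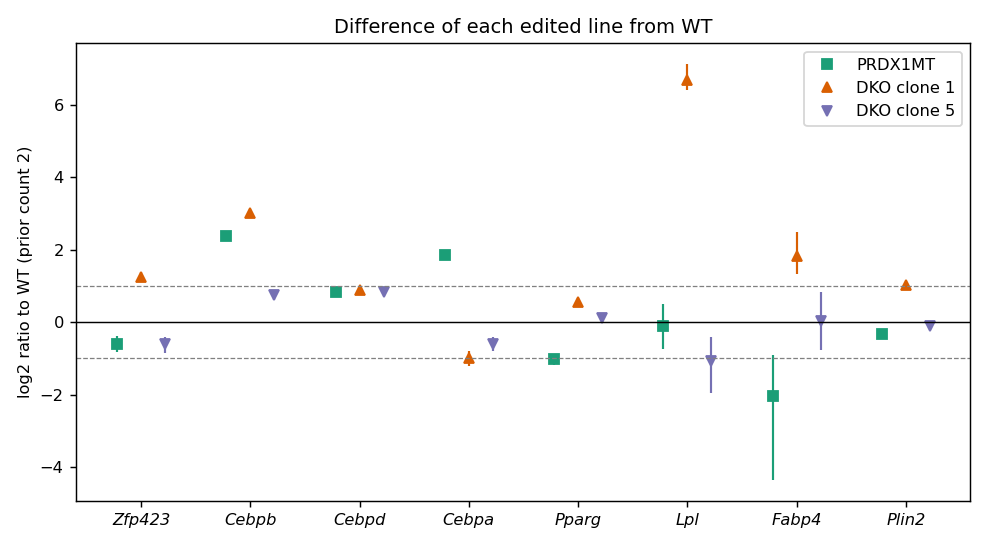
Log2 ratio of each edited line to WT (y axis, prior count 2) for the 8 genes with at least 100 reads in all (x axis), 1 symbol per line, with vertical lines for the 95% interval of the counting. Dashed lines mark a log2 ratio of 1 in either direction. All 3 lines share the 1 WT library. Lpl in DKO clone 1 is at 6.69, and Cebpa is above 0 in PRDX1MT (1.86) and below 0 in both clones (-1.0 and -0.60).

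Lpl (ENSMUSG00000015568, chromosome 8, 68880491 to 68907448, plus strand) showed the widest span of the 10 genes. It had 66 reads in WT, 37 in PRDX1MT, 6138 in clone 1 and 20 in clone 5, which were 1.60, 1.49, 172 and 0.726 CPM. Clone 1 alone was high. Lpl was 107-fold higher in clone 1 than in WT (84.2 to 139), and of 12935 genes with enough reads only 3 had a higher ratio. Between the clones it was 237-fold lower in clone 5 (153 to 388), and 1 of 12317 genes had a lower ratio. WT and PRDX1MT did not differ beyond counting error (1.08-fold, 0.710 to 1.66), and clone 5 was 2.21-fold under WT (1.32 to 3.85) on 86 reads. As a group DKO had 86.4 ± 121 CPM (SD, n = 2), so the spread between clones exceeded the mean. The edgeR log2 ratio to WT was 5.75 (SE 2.57, adjusted p = 1.0, Benjamini-Hochberg adjustment), and without clone 1 the ratio was -1.08.

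Plin2 (ENSMUSG00000028494, chromosome 4, 86648386 to 86670060, minus strand), the lipid droplet coat, had the most reads of the 10 genes in WT and clone 1. It stood at 118 CPM (WT), 94.5 (PRDX1MT), 239 (clone 1) and 109 (clone 5). Clone 1 was again the high library, and the other 3 lay within 1.25-fold of each other. Plin2 was 2.03-fold higher in clone 1 than in WT (1.96 to 2.10), which passed the size rule by a small margin and did not with total-count scaling (log2 ratio 0.93). Its edgeR log2 ratio for DKO against WT was 0.56 (SE 0.59, adjusted p = 1.0, Benjamini-Hochberg adjustment).

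Fabp4 (ENSMUSG00000062515, chromosome 3, 10204088 to 10208576, minus strand) had few reads: 35 in WT, 4 in PRDX1MT, 113 in clone 1 and 24 in clone 5. These were 0.851, 0.161, 3.17 and 0.872 CPM. Clone 1 was the high library and PRDX1MT the low one. Fabp4 was 3.73-fold higher in clone 1 than in WT (2.53 to 5.61) and 5.29-fold lower in PRDX1MT (1.89 to 20.5), the latter on 39 reads. Clone 5 and WT did not differ beyond counting error (1.02-fold, 0.583 to 1.77, and -0.10 on the log2 scale with total-count scaling). Against PRDX1MT, the DKO log2 ratio was 3.63 (SE 1.27, unadjusted p = 0.0224, adjusted p = 0.835, edgeR with Benjamini-Hochberg adjustment).

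Adipoq (ENSMUSG00000022878, chromosome 16, 23146536 to 23158028, plus strand) had 0 reads in WT, 3 in PRDX1MT, 31 in clone 1 and 3 in clone 5. In clone 1 this was 0.869 CPM (0.591 to 1.23), at least 11.9-fold above WT with 3 counts per library as the floor. The other libraries were at or under that floor, so no fold is given between them. The DKO difference from WT did not pass (adjusted p = 0.859, edgeR, Benjamini-Hochberg adjustment). Cd36 (ENSMUSG00000002944, chromosome 5, 17781690 to 17888801, minus strand) had 3 reads in clone 1 and 0 in the other libraries, where the floor of 3 counts stood at 0.0729 CPM (WT), 0.121 (PRDX1MT) and 0.109 (clone 5). Cd36 was thus at or under the floor in every library, and its 3 reads in clone 1 stood beside 6138 of Lpl.

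Per kilobase of exon, the order of the 10 genes also changed between libraries. In WT the highest level was that of Plin2 (33.6 CPM per kb), then Cebpd (17.7), Cebpb (14.1), Pparg (11.5), Cebpa (6.21) and Zfp423 (2.49), with Fabp4 at 0.189 and Lpl at 0.153 CPM per kb. In PRDX1MT Cebpb was first (72.6 CPM per kb), followed by Cebpd (31.6), Plin2 (26.9) and Cebpa (22.7). In clone 1 Cebpb led with 114 CPM per kb, ahead of Plin2 (68.2) and Cebpd (32.4), and Lpl (16.4) stood beside Pparg (16.9). Clone 5 had Cebpd (31.3) and Plin2 (31.1) at about the same level, then Cebpb (23.5) and Pparg (12.4). These values use all annotated exons, and the order depends on that choice. Per kilobase of the transcript with the longest coding part, Plin2 led in clone 1 (127 CPM per kb, Cebpb 114), and Lpl (41.8) ranked at place 3 instead of 5. In clone 5 Plin2 (57.9) then stood above Cebpd (31.3), in PRDX1MT Plin2 (50.1) passed Cebpd (31.6), and in WT Pparg (19.2) passed Cebpd (17.7).

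Tested as a group, none of the genes passed between DKO and WT. Of the 10, 9 passed the filter on low counts, Adipoq through clone 1 alone. By edgeR 0 of 9 were called, where 0.468% of all genes tested were (0.0154% higher and 0.453% lower). Leaving Adipoq aside for that reason, 1 of the other 8 had an unadjusted p under 0.05, Cebpb, where 5.08% of all genes did. DESeq2 called 0, against 1.46% of all genes (0.312% higher and 1.15% lower).

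Against PRDX1MT, edgeR called 0 of 9, where 0.206% of all genes were called (0.0103% higher and 0.195% lower). At an unadjusted p under 0.05 there were 3 of the 8 without Adipoq (Cebpa, Pparg and Fabp4), where 4.69% of all genes were. DESeq2 called 1, Cebpa, lower in DKO, against 1.17% of all genes (0.333% higher and 0.841% lower). Both comparisons share the DKO libraries, and the only residual spread in the fit is that between the clones, which may be technical. Clone 1 decides several of these values: without it, the log2 ratio of DKO to WT was -1.08 for Lpl, -0.11 for Plin2 and -0.62 for Zfp423.

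Looked at apart, the clones lay differently against WT. In clone 1, 5 of the 8 genes with enough reads passed the size rule, all higher (Cebpb, Lpl, Fabp4, Plin2 and Zfp423). Over all genes 16% passed (8.4% higher and 7.56% lower). Lpl and Fabp4 had enough reads there through clone 1 itself, which held 6138 of 6204 and 113 of 148 reads. In clone 5, 0 of 6 passed, where 14.3% of all genes did (5.69% higher and 8.58% lower). Between the clones, 5 of 8 passed, all lower in clone 5, where 18.4% of all genes passed (7.63% higher and 10.7% lower). They were the 5 genes that were higher in clone 1 than in WT, and Lpl and Fabp4 again had enough reads through clone 1.

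Against WT, 3 of 7 genes passed in PRDX1MT, with Cebpa and Cebpb higher and Pparg lower, where 14.8% of all genes did (7.25% higher and 7.57% lower). Set against PRDX1MT, 6 of 8 passed in clone 1, where 15% of all genes did (8.14% higher and 6.85% lower). Here too Lpl and Fabp4 had enough reads through clone 1. Lpl (116-fold), Fabp4 (19.7-fold), Zfp423 (3.59-fold), Pparg (3.02-fold) and Plin2 (2.53-fold) were higher there and Cebpa lower (7.33-fold). In clone 5, 3 of 6 passed against PRDX1MT, with Pparg higher (2.21-fold) and Cebpa (5.56-fold) and Cebpb (3.09-fold) lower, where 13.8% of all genes did (5.83% higher and 8.01% lower). Cebpa was thus lower and Pparg higher in both clones than in PRDX1MT. The median log2 ratio to WT was 1.13 in clone 1 (8 genes with enough reads), 0.0027 in clone 5 (6) and -0.10 in PRDX1MT (7). Over all genes it was -0.02, -0.03 and -0.04. The 3 medians cover different genes and cannot be set side by side. Lpl and Fabp4 count in clone 1, where they were high, and not in clone 5. Each comparison in this paragraph is between libraries and has no replicate check.

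**Figure D3:**
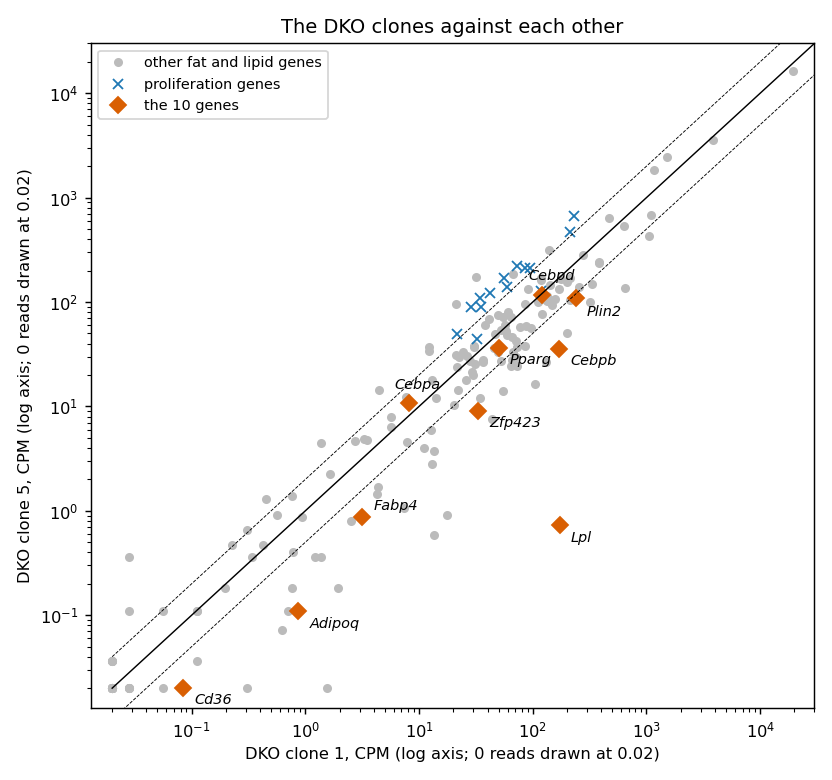
CPM in DKO clone 1 (x axis) and DKO clone 5 (y axis), both on log axes, for the 10 genes (diamonds), the other fat and lipid genes (grey circles) and 14 proliferation genes (crosses). The solid line marks equal levels and the dashed lines a 2-fold difference, and genes with 0 reads are drawn at 0.02 CPM. Lpl lies farthest below the line (172 and 0.726 CPM), and most proliferation genes lie above it.

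Between the clones, the wider fat and lipid lists held more genes higher in clone 1 than in clone 5. They hold 162 genes, none of them among the 10, and 110 of them had enough reads in the clones. Of these, 27 were lower and 8 higher in clone 5 than in clone 1, where 10.7% and 7.63% of all genes were, and the median log2 ratio was -0.35, beside -0.02 over all genes. Some genes in both counts had enough reads only through the clone where they were high. Examples are Rarres2 (624 reads in clone 1 and 25 in clone 5) and Slc27a3 (49 and 124). By edgeR, DKO against WT, 3 of 132 genes tested fell (Vldlr, Cd24a and Thy1) and 0 rose, where 0.453% and 0.0154% of all genes did. At an unadjusted p under 0.05 there were 15 (5.08% of all genes). DESeq2 called 2 higher, with Rarres2 among them, and 4 lower (Vldlr, Cd24a, Thy1 and Zfp467), where 0.312% and 1.15% of all genes were. Against PRDX1MT edgeR called 0 of 132 (0.206% of all genes), with 11 at an unadjusted p under 0.05 (4.69%). There DESeq2 called 4 higher (G0s2, Dgat2, Angptl4 and Rarres2) and 3 lower (Vldlr, Cd24a and Zfp467), beside 0.333% and 0.841% of all genes.

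Of 24 activators of fat cell transcription, 22 had enough reads in the clones. Of these, 7 were lower in clone 5 than in clone 1 and 0 higher (10.7% and 7.63% of all genes). Some of the 7, Ppargc1a among them (486 reads in clone 1 and 16 in clone 5), had enough reads only through clone 1. Ppargc1a, a coactivator of PPAR proteins, stood at 1.75 CPM (WT), 2.13 (PRDX1MT), 13.6 (clone 1) and 0.581 (clone 5). Klf9, a Krüppel-like factor, had 44.1, 190, 131 and 26.4 CPM in the same order, high in the libraries where Cebpb was high. Zfp467, a zinc-finger activator of fat cell formation, stood at 2.79 CPM (WT) and 1.73 (PRDX1MT) and had no read in either clone, which was at least 33.2-fold lower in clone 1 and at least 25.6-fold lower in clone 5 than in WT. For DKO against WT its adjusted p was 0.0596 by edgeR, which missed the threshold, and 0.000935 by DESeq2, which passed it (Benjamini-Hochberg adjustment).

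Among 23 genes known to restrain fat cell formation, 4 of the 19 with enough reads were higher past the size rule in clone 1 than in WT and 0 lower, where 8.4% and 7.56% of all genes were. In PRDX1MT 3 of 18 were higher and 0 lower (7.25% and 7.57% of all genes), and in clone 5 1 of 18 was higher and 1 lower (5.69% and 8.58%). Ccn5, a secreted Wnt-linked protein, stood at 78.4 CPM (WT), 334 (PRDX1MT), 384 (clone 1) and 236 (clone 5). All edited lines lay above WT, and the DKO log2 ratio was 1.98 (adjusted p = 0.461, edgeR with Benjamini-Hochberg adjustment). Klf2 was at 106, 394, 257 and 138 CPM in that order, and Hes1, a Notch target, at 109, 197, 334 and 150 CPM. The classical preadipocyte inhibitor Dlk1 was low throughout, with 1.56 CPM in WT and 0 reads in clone 5.

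Several lipid storage genes differed between the clones too. Plin4, a lipid droplet coat protein, stood at 127 CPM (WT), 108 (PRDX1MT), 646 (clone 1) and 137 (clone 5). Dgat2, which makes triglyceride from diacylglycerol, had 14.7, 8.24, 73.0 and 24.1 CPM, and Lpin3, a phosphatidate phosphatase, 4.69, 4.86, 12.9 and 2.83 CPM. Both were highest in clone 1. Of 11 triglyceride synthesis genes with enough reads 4 were lower in clone 5 than in clone 1 and 0 higher (10.7% and 7.63% of all genes). Some of the 4, Lpin3 among them (460 reads in clone 1 and 78 in clone 5), had enough reads only through clone 1. Lpin1, another such phosphatase, was low in clone 5 (14.0 CPM) against 34.9 to 54.9 CPM elsewhere. Cav1, which forms caveolae, was highest in clone 5, with 172 CPM against 20.1 to 37.1 CPM elsewhere. Hsd17b11, a lipid droplet enzyme, stood at 32.0 CPM (WT), 15.2 (PRDX1MT), 34.2 (clone 1) and 12.0 (clone 5). The coat genes of mature fat cells, Plin1, Cidea and Cidec, were at 0 to 0.0841 CPM in every library.

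Lipases other than Lpl gave a mixed picture. Mgll, the monoglyceride lipase, stood at 10.6 CPM (WT), 31.3 (PRDX1MT), 43.7 (clone 1) and 7.63 (clone 5). G0s2, an inhibitor of triglyceride lipolysis, was high in both clones, with 22.0 and 14.5 CPM against 4.54 CPM in WT and 2.29 CPM in PRDX1MT (DKO log2 ratio to WT 2.0, SE 0.62, adjusted p = 0.558 by edgeR after Benjamini-Hochberg adjustment). Lipe, the hormone-sensitive lipase, was between 4.54 and 9.23 CPM.

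Where 0.453% of all genes fell in DKO against WT by edgeR, 1 of 17 tested genes of lipoprotein handling and fatty acid uptake did. That gene, Vldlr, a lipoprotein receptor that works with Lpl, stood at 50.4 CPM (WT), 36.1 (PRDX1MT), 4.35 (clone 1) and 1.71 (clone 5) (log2 ratio -4.05, SE 0.61, adjusted p = 0.0480, edgeR, Benjamini-Hochberg adjustment). The call was lost with either other scaling, without Gm26917 and mitochondrially encoded genes, and with 1 CPM needed in 2 libraries. Adjusted p values by edgeR were then 0.0520 to 0.234. It was kept by DESeq2 and, in edgeR, with no filter on low counts or only the 2 groups compared. Slc27a3, an acyl-CoA synthetase of the fatty acid transport family, stood at 17.4 CPM (WT), 4.34 (PRDX1MT), 1.37 (clone 1) and 4.50 (clone 5), lower past the size rule in each edited line. Angptl4, a PPAR-induced inhibitor of lipoprotein lipase, stood at 2.38 CPM (WT), 0 (PRDX1MT), 13.7 (clone 1) and 3.70 (clone 5). It was thus highest in the library where Lpl was highest, and at least 19.7-fold lower in PRDX1MT than in WT. Gpihbp1, which anchors the lipase on capillary walls, had 0 reads in all 4 libraries.

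Of 15 genes of secreted fat cell products, 9 passed the filter on low counts. Lep, the leptin gene, had 0 reads in all 4 libraries, and Retn and Cfd were at 0 to 0.201 CPM. Rarres2, the gene of the adipokine chemerin, stood at 0.267 CPM (WT), 0.281 (PRDX1MT), 17.5 (clone 1) and 0.908 (clone 5), so clone 1 was 65.5-fold above WT. Apln, the apelin gene, was high in clone 5 only, at 37.2 CPM against 11.1 to 12.3 CPM. Over the 7 mature fat markers (Adipoq, Lep, Plin1, Cidec, Fabp4, Cfd and Retn) the summed level was 0.972 CPM (WT), 0.523 (PRDX1MT), 4.21 (clone 1) and 1.13 (clone 5).

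Genes of fatty acid oxidation that respond to PPAR proteins were mostly near or below WT. Of 14 tested, edgeR called 0 in DKO against WT (0.468% of all genes) and 0 against PRDX1MT (0.206%). Pdk4, which restrains entry of pyruvate into the citric acid cycle, stood at 41.5 CPM (WT), 2.49 (PRDX1MT), 12.8 (clone 1) and 5.96 (clone 5), lower past the size rule in each edited line. Acadm, a medium-chain acyl-CoA dehydrogenase, had 48.5, 23.5, 65.5 and 27.9 CPM in that order. The list's median log2 ratio to WT was -0.74 in PRDX1MT, -0.18 in clone 1 and -0.65 in clone 5. Of the brown and beige fat genes 4 of 14 passed the filter, Ucp1 had at most 1 read in a library, and Cox7a1 was higher only in PRDX1MT (3.82 CPM against 0.872 to 0.925 CPM).

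Of the preadipocyte and progenitor markers, 2 of 14 tested fell in DKO against WT and 0 rose (0.453% and 0.0154% of all genes). Cd24a, a surface marker of fat progenitors, stood at 17.5 CPM (WT) and 1.29 (PRDX1MT) and had no read in either clone (adjusted p = 0.0191, edgeR with Benjamini-Hochberg adjustment). It was at least 208-fold lower in clone 1 and at least 161-fold lower in clone 5 than in WT. Thy1, also the only one of the 12 stem cell markers called, fell from 29.0 CPM to 1.07 ± 0.44 CPM in DKO (SD, n = 2; log2 ratio -4.76, adjusted p = 0.0321, edgeR with Benjamini-Hochberg adjustment). Both calls were lost when genes needed 1 CPM in 2 libraries, at adjusted p values of 0.163 and 0.173 by edgeR. With that filter edgeR called 0 genes of any kind. DESeq2 called both genes too, and edgeR kept both with either other scaling. Both genes were low in PRDX1MT as well. On the stem cell list Ly6a was highest in clone 5 (317 CPM against 98.1 to 138 CPM) and Alcam lowest in clone 1 (4.12 CPM against 49.5 to 81.1 CPM). Bmp4, a ligand that commits C3H10T1/2 cells to the fat lineage, stood at 70.1 CPM (WT), 246 (PRDX1MT), 67.1 (clone 1) and 186 (clone 5).

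**Figure D4:**
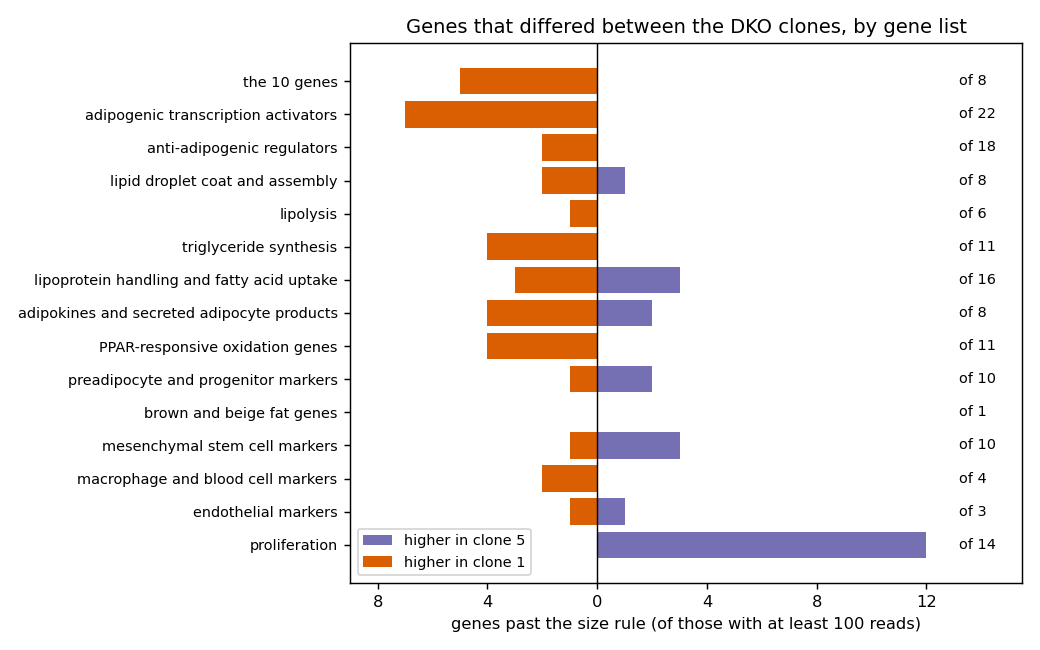
Number of genes past the size rule between DKO clone 5 and DKO clone 1 (x axis) in each gene list (y axis), higher in clone 1 to the left and higher in clone 5 to the right, with the number that had at least 100 reads at the right edge. Proliferation genes lie to the right (12 of 14, beside 7.63% of all genes). Of the 10 genes, 5 of 8 lie to the left (10.7% of all genes), where Lpl and Fabp4 had enough reads through clone 1. Some genes are on more than 1 list.

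Other measures moved with the difference between the clones, and their part in it was not tested. All 14 proliferation genes had enough reads, and 12 were higher in clone 5 (7.63% of all genes). Their median log2 ratio was 1.34, beside -0.02 over all genes. Their summed level was 1458 CPM (WT), 1318 (PRDX1MT), 1123 (clone 1) and 2713 (clone 5). Of 10 macrophage and blood markers 4 had enough reads in the clones. Of these, 2 were higher in clone 1 than in clone 5 (10.7% of all genes), Lyz2 (3.73 and 0.0363 CPM) and Cd14 (12.3 and 3.67 CPM). Lyz2, under the floor in clone 5, had enough reads only through clone 1. The summed level of these markers was highest in clone 1, at 22.2 CPM against 9.15 to 13.7 CPM elsewhere. The defining markers Adgre1 and Tyrobp had 0 reads in all libraries, and Ptprc had 0 reads outside PRDX1MT, where it was at 0.161 CPM. Of 10 endothelial markers, 3 had enough reads in the clones. Vwf stood at 0.972 CPM (WT), 1.49 (PRDX1MT), 9.42 (clone 1) and 2.29 (clone 5), higher past the size rule in clone 1 than in WT or clone 5. Flt1 stood at 27.3 CPM (WT), 29.6 (PRDX1MT), 0.365 (clone 1) and 10.2 (clone 5), lowest in clone 1. Egfl7 was at 0.393 and 0.254 CPM in clones 1 and 5, against 3.13 CPM in WT and 1.41 CPM in PRDX1MT. The defining marker Cdh5 had 0 reads in both clones, Pecam1 was at 0.0729 to 0.336 CPM in the 4 libraries, and the summed level was 16.5 CPM in clone 1 and 25.1 to 49.3 CPM elsewhere. Mitochondrially encoded genes took 2.05% of the counts in clone 1 and 0.871% in clone 5. In bulk RNA a larger share of cells with a gene on and more RNA per cell cannot be told apart.

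Genes near Lpl, Cebpb, Zfp423 and Plin2 had smaller ratios between the clones than these members, or ratios of the other sign. Within 5 Mb of Lpl, 114 genes had a median log2 ratio of 0.02 between clone 5 and clone 1, where Lpl was at -7.77. Around Cebpb the median was -0.35 over 73 genes, and Cebpb was at -2.27. Around Zfp423 it was -0.08 over 84 genes, with Zfp423 at -1.86, and around Plin2 0.31 over 20 genes, with Plin2 at -1.13. Chromosome 6, which holds Pparg, had a median log2 ratio to WT of -0.28 in PRDX1MT over 641 genes and of 0.22 and 0.26 in clones 1 and 5 over 689 and 657 genes, beside -0.04, -0.02 and -0.03 over all genes. Within 5 Mb of Pparg the medians were -0.25 over 71 genes in PRDX1MT, 0.0078 over 74 in clone 1 and 0.35 over 71 in clone 5. The Pparg ratios were -1.03, 0.56 and 0.11. In clone 1 the nearby genes were thus close to no change where Pparg was higher, and in clone 5 their median exceeded the Pparg ratio. The part of the chromosome shift in the Pparg ratios was not tested.

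As a description, the genes with the closest profile over the 4 libraries were listed for the members that had at least 100 reads in all and spanned at least 2 on the log2 scale, by the root mean square distance of centred log2 CPM among 11923 protein-coding genes. For Cebpb these were Maff (0.14), Mfap5 (0.15) and Junb (0.15), each high in PRDX1MT and clone 1. Junb, an AP-1 subunit, stood at 222, 1003, 1338 and 310.2 CPM in WT, PRDX1MT, clone 1 and clone 5. For Cebpa they were Mcam (0.13), Cacna1d (0.18) and Col12a1 (0.20), each highest in PRDX1MT. For Fabp4 they were Cntnap5b (0.21), Nat8f4 (0.25) and Lrrc32 (0.29). Lpl had no close match: Padi2, at 10.0, 3.05, 386 and 5.45 CPM, was nearest at a distance of 0.81, then Il6 (0.88) and Nat8f7 (0.94).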

How the data were processed

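Total RNA was sequenced in 4 libraries. Per the labels' protocols, ribosomal RNA was removed and a stranded library kit was used. The submitters' processing notes name STAR 2.6.1d and the build mm10. How reads were counted, with which annotation and on which strand, is not given in the sources used here, so genes that overlap others are uncertain. The authors deposited 1 table of raw whole-number counts per library. Of 54532 identifiers, 54495 matched GENCODE M21 (GRCm38).

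The tools were edgeR 4.0.16, limma 3.58.1 and DESeq2 1.42.0 under R 4.3.3. A quasi-likelihood fit in edgeR held all 3 groups (TMM, filterByExpr, Benjamini-Hochberg adjusted p under 0.05, 19446 genes), and its 1 residual degree of freedom comes from the clones. WT and PRDX1MT are assumed to vary like those clones, whose spread, all that p values measure here, may be technical. SE is the log2 ratio over the square root of F. Log2 ratios of libraries use a prior count of 2 and folds none, with exact conditional binomial intervals, and levels have exact Poisson intervals. Folds given as at least a value set a count of 0 to the floor and leave out the counting error of the other count. Libraries could not be paired. The code was tested on simulated data.

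The 10 genes and the other lists were chosen with earlier results of these data known. Besides the 10, the genes named were those called by edgeR on each list, up to 3 per list with the largest ratio to WT past the size rule, and the 3 closest profiles, of which 1 gene is not reported here. Plin1, Cidea, Cidec, Lep, Retn, Cfd, Ucp1, Gpihbp1, Dlk1, Vim, Nt5e and the defining markers at or near 0, with Cd14, were named outside that rule. Alternatives were DESeq2, other scalings, filters and size rules, only the groups compared, Gm26917 and mitochondrially encoded genes removed, each clone left out and, chosen after seeing the data, another gene length.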

Additional observations from a re-analysis of the deposited data

Results flagged for a closer look

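Cebpa lay on opposite sides of WT in the edited lines: higher in PRDX1MT (log2 ratio 1.86) and lower in both DKO clones (-1.0 and -0.60), each with a counting interval that excludes no change. The difference itself, DKO against PRDX1MT, had a log2 ratio of -2.66, with an adjusted p of 0.107 by edgeR and 0.00321 by DESeq2 (Benjamini-Hochberg adjustment). Groups had 1 to 2 libraries, too few for a check of libraries that stand apart within a group.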

How the results depend on the processing

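Counts of genes called by edgeR depended on the settings. Against WT (91 in the report) they were 262 by DESeq2, 535 with no filter on low counts and 0 with 1 CPM in 2 libraries. Against PRDX1MT (40) they were 215 by DESeq2, 404 with no filter, 0 with 1 CPM in 2 libraries, 13 with median-of-ratios scaling, 7 with total-count scaling and 11 with only the 2 groups compared. Leaving out 1 clone, with WT and PRDX1MT joined to keep a residual degree of freedom, gave 21 (without clone 1) to 92 (without clone 5) in both comparisons, and 0 to 1 of the 10 genes, the 1 being Lpl without clone 5. With no filter 2 of the 10 genes were called against WT (Cebpb and Lpl) and 2 against PRDX1MT (Cebpa and Lpl), and by DESeq2 1 against PRDX1MT (Cebpa). The cause was not tested.

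The size rule passed 5 genes in PRDX1MT against WT at a log2 ratio of 0.58 (3 in the report), 3 in clone 1 at a ratio of 1.5 (5 in the report), and in clone 5 (0 in the report) 4 at 0.58 and 1 at 20 reads, Lpl. Between the clones it passed 4 to 6. Total-count scaling moved the median of all genes against WT by -0.273 (PRDX1MT), -0.0953 (clone 1) and -0.139 (clone 5). It turned the log2 ratios of Pparg (-0.026) and Fabp4 (-0.10) in clone 5 against WT and of Cebpb in DKO against PRDX1MT (0.091), and a filter of 1 CPM turned Cebpd there (-0.0082), all near 0. With 1 clone left out (clone 1 first, then clone 5), log2 ratios to WT were -1.08 and 6.69 for Lpl, -0.11 and 1.02 for Plin2, and -0.62 and 1.24 for Zfp423. Log2 ratios to PRDX1MT were -1.62 and 0.65 for Cebpb, -0.012 and 0.038 for Cebpd, -0.97 and 6.80 for Lpl, -0.095 and 2.35 for Adipoq, and -0.020 and 1.84 for Zfp423. No paired analysis was possible because the groups share fewer than 2 replicate numbers. Depth limits Cd36, Adipoq and Fabp4, which held 3, 37 and 176 reads over all libraries.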
